A study of Mus musculus with 4 samples.

Results

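The genes described here are 41 genes of DNA replication, chosen by symbol from textbook roles, with earlier results of these data known. All 41 symbols were found among the 32285 genes counted in each sample. Their RNA was followed in sorted T cells (live CD45+ CD3+ CD8+) of C57BL/6J mice bearing tumours of B16F10, a transplantable melanoma line, by droplet-based single-cell sequencing of transcript 5-prime ends. There were 2 groups of 2 samples each. sgScr is the control, labelled as a scrambled guide RNA, and sgArid1a is named for a guide that targets Arid1a, which encodes a subunit of SWI/SNF nucleosome remodellers. Strain, tumour line, age (6 to 8 weeks) and sorted population were the same in both groups, and the labels say neither which cells carried the guide nor whether replicates came from separate animals or pools. The p-values below therefore rest on the scatter among these libraries, and that scatter can be technical. The question the labels set is how the T cells of the 2 groups differ, and here it is asked of the replication genes over all T cells, within each cell state, and within the cells that hold replication transcripts.

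Replication begins when origins are licensed by loading the Mcm2-7 helicase, which Cdc6 and Cdt1 carry out and Gmnn (geminin) prevents from happening again. The helicase is then switched on with Cdc45 and the GINS complex, and polymerases, the Pcna clamp and its loader copy the strands while Tyms, Tk1 and ribonucleotide reductase supply the nucleotides. E2F transcription factors switch most of these genes on as a cell commits to division, and resting T cells keep them low until the antigen receptor is engaged.

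Promoter sequence was available for 33 of the 41 genes, as RefSeq windows on GRCm38.p6, and is shown for 4 genes whose windows overlapped no annotated exon: 2 with an E2F-type match and 2 without, one of which, Cdt1, was the member that fell. The motif searched was TTTCCCGC, TTTCGCGC, TTTGCCGC or TTTGGCGC on either strand, in the 250 bases before the start, and matches are in capitals. A match was found in 10 of the 38 windows of the members (26.3%), against 1.86% of all 32851 windows and 1 of 34 windows (2.94%) of a list of mitosis genes. The CCAAT letters were in 60.5% of the members' windows, 33.8% of all and 79.4% of the mitosis windows, and TTTGAA, the core of the cell cycle homology region, was in 13.2, 16 and 32.4%. Both were also searched on either strand, and matches of different motifs may share some bases.
Mcm6, chr1:128359706-128359955, minus strand: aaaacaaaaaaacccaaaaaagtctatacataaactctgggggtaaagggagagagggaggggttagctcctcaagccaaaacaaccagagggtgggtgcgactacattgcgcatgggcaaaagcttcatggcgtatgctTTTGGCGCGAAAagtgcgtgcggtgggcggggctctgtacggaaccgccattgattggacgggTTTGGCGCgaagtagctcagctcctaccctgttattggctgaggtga
Mcm5, chr8:75109259-75109508, plus strand: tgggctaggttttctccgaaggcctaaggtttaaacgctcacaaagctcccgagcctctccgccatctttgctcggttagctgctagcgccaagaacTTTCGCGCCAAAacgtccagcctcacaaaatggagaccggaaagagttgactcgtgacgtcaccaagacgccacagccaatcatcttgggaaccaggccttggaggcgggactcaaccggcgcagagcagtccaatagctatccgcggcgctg
Cdt1, chr8:122567765-122568014, plus strand: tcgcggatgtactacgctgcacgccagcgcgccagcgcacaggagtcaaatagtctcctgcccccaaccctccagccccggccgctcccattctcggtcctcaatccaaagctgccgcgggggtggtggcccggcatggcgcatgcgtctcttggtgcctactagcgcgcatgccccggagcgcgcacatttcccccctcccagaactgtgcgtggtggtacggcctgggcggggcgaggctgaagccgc
E2f8, chr7:48881597-48881846, minus strand: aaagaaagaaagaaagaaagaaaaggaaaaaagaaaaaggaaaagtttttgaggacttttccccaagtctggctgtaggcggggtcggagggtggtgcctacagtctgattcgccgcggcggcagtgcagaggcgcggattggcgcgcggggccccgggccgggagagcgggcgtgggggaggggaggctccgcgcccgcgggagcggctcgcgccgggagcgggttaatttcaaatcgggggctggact
In the Mcm6 window there were 3 matches, 2 of which overlap, and in the Mcm5 window 2, which overlap too. The windows of Cdt1 and E2f8 held none, which says only that these letters are not in these bases.

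After filters, 38183 T cells remained, 7631 and 7148 in sgScr and 10667 and 12737 in sgArid1a, with a median of 3749, 3595, 2402 and 4016 UMIs (unique molecular identifiers, 1 per captured transcript) per cell. sgArid1a replicate 1 was thus the shallowest library and replicate 2 held the most UMIs, 80818535 against 32077525 to 39010386 in the others. Levels are given as CPM, the usual scaling of a gene's UMIs to the UMI total of a sample's T cells. Arid1a itself was at 85.0 and 93.7 CPM in sgScr and at 74.1 and 72.4 CPM in sgArid1a, a log2 fold change of -0.26 ± 0.06 (SE). A guide can alter a gene without removing its transcript, so this level does not check the label. Of other cell types, 8 myeloid markers summed to 32.3 and 35.1 against 73.5 and 74.1 CPM (no marker at 0). Of the 5 tested, 4 were called higher in sgArid1a and 1 lower. Among the 8, Cd74 was also found in T cell states described below. It was at 216 CPM in early-activated-like and 89.7 CPM in cycling-like cells, against 1.85 CPM in naive-like 1 cells, so this sum need not come from other cell types. The 4 B cell markers summed to 11.6 and 12.7 against 8.05 and 7.67 CPM. The 3 natural killer markers summed to 56.4 and 60.4 against 47.9 and 48.1 CPM, and 5 melanoma markers to between 1.74 and 2.53 CPM. A heat-shock list rose from 490 and 511 CPM to 750 CPM in both sgArid1a samples. The part of these in the results was not tested. Pairs of libraries shared between 74 and 218 cell barcodes.

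Over all T cells, 39 of the 41 replication genes rose in sgArid1a, 1 fell and 1 did not pass the test. Their summed level was 1250 and 1293 CPM in the sgScr samples and 2115 and 2208 CPM in the sgArid1a samples, and the groups do not overlap. The median log2 fold change of the 41 was 0.88, and that of all 12780 genes tested was -0.01. Among all genes tested 28% were called higher and 26.2% lower, so calls were common between these samples, and the share of members called higher, 95.1%, is to be read against that. Each call is edgeR's quasi-likelihood test on counts summed per sample, at a Benjamini-Hochberg adjusted p under 0.05 over all genes tested. Since earlier results were known when the list was chosen, its count is no independent evidence of its direction.

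Licensing and helicase genes were 16 of the members, of which 15 rose and Cdt1 fell. Dtl, the substrate receptor of the ubiquitin ligase that removes Cdt1 in S phase, moved most. It lies on chromosome 1 from 191537356 to 191575544 (minus strand, GRCm38) and was at 8.52 and 9.85 CPM in sgScr and 23.1 and 24.3 CPM in sgArid1a. Both sgArid1a samples were above both sgScr samples, and the log2 fold change was 1.40 ± 0.08 (SE, n = 2 per group, edgeR adjusted p = 2.95e-08). Mcm10, which helps to activate the loaded helicase, went from 2.98 and 4.30 to 9.31 and 8.96 CPM, and the GINS subunits Gins1 and Gins2 rose by 1.32 ± 0.11 and 1.31 ± 0.08 on the log2 scale. The other GINS subunits rose less, Gins3 by 0.44 ± 0.09 and Gins4 by 0.33 ± 0.06. Cdc45, the helicase's activating partner, rose by 1.22 ± 0.08, and Cdc6, which loads it, by 1.17 ± 0.10. The 6 subunits of the Mcm2-7 ring did not rise evenly: Mcm5 rose by 0.97 ± 0.06 and Mcm3 by 0.88 ± 0.06, against 0.66 for both Mcm2 and Mcm6, 0.55 for Mcm4 and 0.49 for Mcm7. Mcm6 was the ring subunit with most counts, at 83.5 and 86.9 CPM in sgScr and 125 and 139 CPM in sgArid1a. Gmnn, the inhibitor of Cdt1, rose from 39.6 and 37.9 to 71.9 and 72.5 CPM, by 0.92 ± 0.06.

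Cdt1, the licensing factor, was the one member that fell. It lies on chromosome 8 from 122568015 to 122573554 (plus strand, GRCm38). Its level was 37.7 and 43.0 CPM in sgScr and 32.2 and 33.1 CPM in sgArid1a, so both sgArid1a samples were below both sgScr samples by a small margin. The log2 fold change was -0.28 ± 0.07 (SE, n = 2 per group, edgeR adjusted p = 0.00367), and without sgScr replicate 2, its higher control, it was -0.21 and no longer passed.

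Of the polymerases, clamp and Okazaki fragment genes, 11 of 11 rose, with a median of 0.79. Lig1, the ligase that seals Okazaki fragments, rose most, from 35.7 and 35.5 to 73.0 and 66.7 CPM, by 1.0 ± 0.07. The clamp loader subunits Rfc4, Rfc5 and Rfc3 rose by 0.99, 0.90 and 0.79, and the clamp itself, Pcna, which had the most counts of this group, went from 70.6 and 75.0 to 119 CPM in both sgArid1a samples, by 0.74 ± 0.06. The catalytic polymerase subunits were unequal. Pole, of the leading-strand polymerase, rose by 0.84 ± 0.08, Pola1, of the polymerase that starts strands with the primase Prim1, by 0.73 ± 0.08, and Pold1, of the lagging-strand polymerase, by 0.48 ± 0.09. Prim1 itself rose by 0.83 ± 0.09 and Fen1, the flap endonuclease, by 0.77 ± 0.07. Rpa2, a subunit of the protein that coats single-stranded DNA, rose least, from 77.4 and 79.9 to 92.7 and 102 CPM, by 0.34 ± 0.06.

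All 4 genes of nucleotide supply rose, with a median of 1.24. Tk1, thymidine kinase, lies on chromosome 11 from 117815526 to 117826092 (minus strand, GRCm38) and was at 30.9 and 32.6 CPM in sgScr and 76.6 and 83.2 CPM in sgArid1a. The groups are well apart, and the log2 fold change was 1.36 ± 0.06 (SE, n = 2 per group, edgeR adjusted p = 3.72e-09). Tyms, thymidylate synthase, went from 38.8 and 40.8 to 90.7 and 97.1 CPM and rose by 1.27 ± 0.06. The 2 ribonucleotide reductase genes differed in size, with Rrm2, the S phase subunit, at 1.22 ± 0.08 and Rrm1 at 0.96 ± 0.06. Rrm1 had the highest level of this group in both sgScr samples, at 45.4 and 47.3 CPM. In sgArid1a it was at 86.5 and 90.3 CPM, below Tyms.

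All 5 chromatin and transcription genes rose. Uhrf1, which carries DNA methylation through replication, rose most, from 18.7 and 21.1 to 44.4 and 43.9 CPM (1.18 ± 0.07). Hells, a remodeller needed for DNA methylation, rose by 1.01 ± 0.07, E2f8, a repressor of E2F targets, by 0.84 ± 0.12, Chaf1b of the histone chaperone CAF-1 by 0.73 ± 0.07, and Slbp, which binds histone mRNA, by 0.51 ± 0.06. Slbp had the most counts of this group, at 94.0 and 95.7 CPM against 126 and 138 CPM.

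Of the fork protection and repair genes, 4 of 5 rose. Exo1, an exonuclease of mismatch repair and end resection, rose by 1.18 ± 0.13, Clspn (claspin, which relays the replication checkpoint) by 1.07 ± 0.09 and Tipin, of the fork protection complex, by 1.01 ± 0.06. Tipin had the most counts of this group, with 44.1 and 45.6 against 87.1 and 90.5 CPM. Ung, the uracil glycosylase, rose by 0.43 ± 0.10. Blm, the Bloom helicase, was at 11.5 and 9.98 CPM in sgScr and 13.5 and 11.9 CPM in sgArid1a, a log2 fold change of 0.25 ± 0.11 (SE, n = 2 per group, edgeR adjusted p = 0.0633), and did not pass. When every cell was thinned to 1500 UMIs first, 34 members were called higher and Cdt1 lower. The members' median was smaller there, 0.73 against 0.88. Of all genes 2191 were called higher and 1878 lower with thinned cells, against 3578 and 3348 without thinning. Blm was then at -0.24, and Mcm7, Gins3, Gins4, Pold1 and Ung lay between 0.10 and 0.30 and did not pass either.

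**Figure D1:**
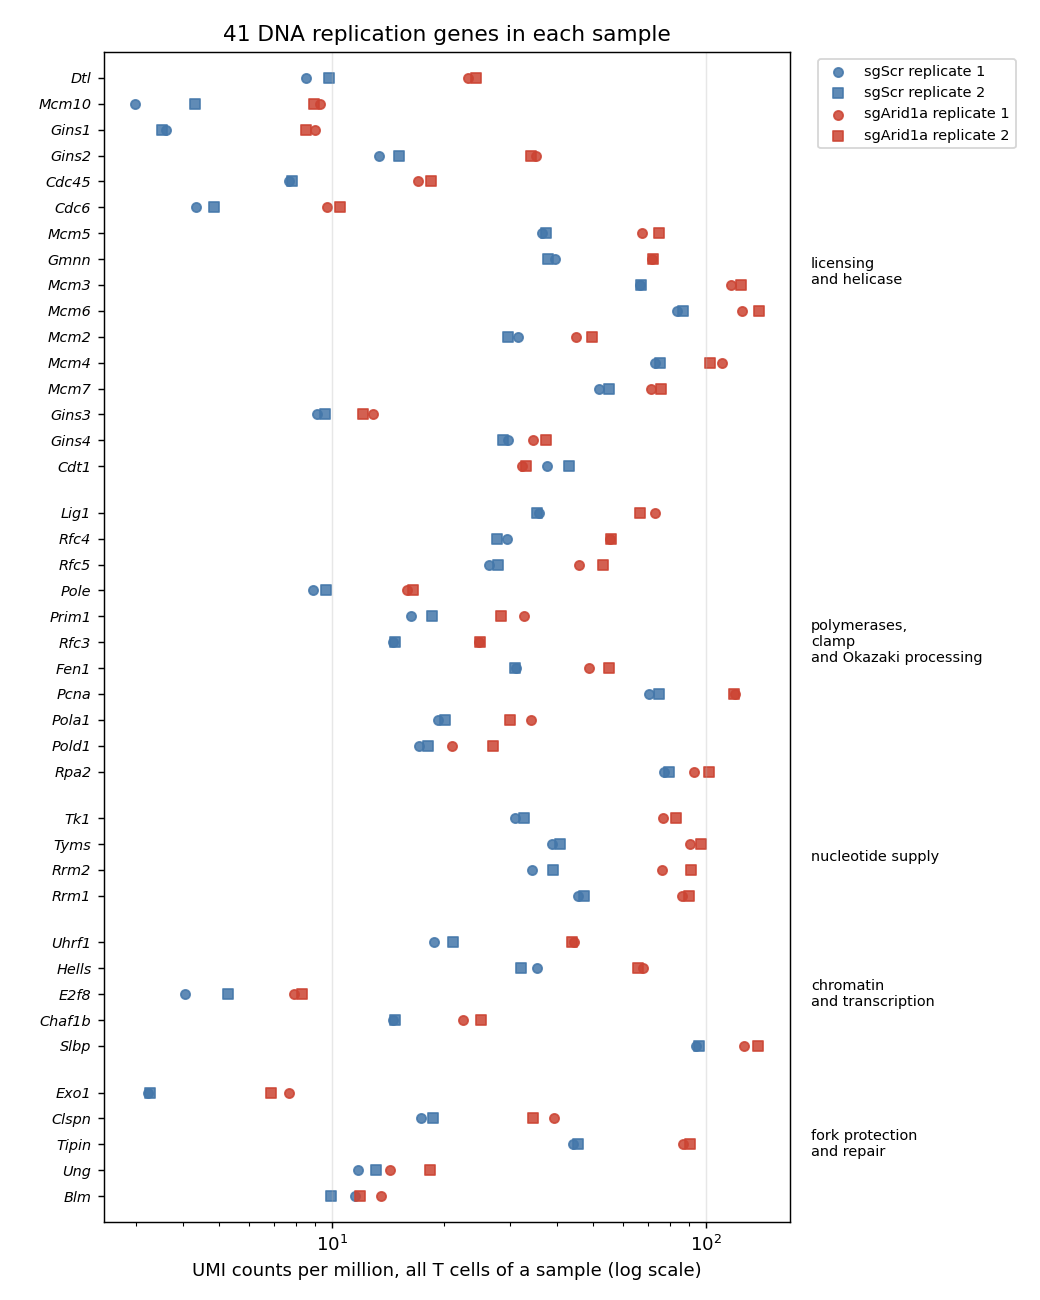
CPM (log axis) of each of the 41 genes in the T cells of each sample, grouped by role and ordered by log2 fold change. Blue points are the 2 sgScr and red points the 2 sgArid1a samples. Red lies to the right of blue for most genes, though narrowly for Blm, which did not pass. For Cdt1 red lies to the left, with sgArid1a samples at 32.2 and 33.1 CPM against 37.7 and 43.0 CPM. With 2 samples per group such separation says little by itself, and its share over all genes was not counted.

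The genes around this list were described over the same T cells, where 28% of all genes tested were called higher and 26.2% lower. Of 37 mitosis genes 36 rose and none fell, with a median of 1.05. Ube2c, Birc5 and Spc24 had the smallest p and rose by 1.37, 1.39 and 1.39. Of 30 other replication enzymes 25 rose and 1, Pole2, fell by 0.29. Pclaf, which binds the clamp, went from 99.3 and 100.1 to 274 and 260 CPM, and the nucleotide enzymes Dut and Dctpp1 rose by 1.19 and 1.04. Of 13 genes of origin recognition and the S phase kinases 9 rose, among them Orc6, Ticrr and Orc1 by 1.0, 1.19 and 1.09, and Orc5 fell by 0.19. Of 15 genes of E2F control and cell cycle entry 13 rose, with Cdk6, Cdk4 and Tfdp1 at 0.81, 0.66 and 0.72, and the cyclin Ccnd3 fell by 0.26. Of 19 DNA damage response genes 12 rose (63.2%) and 4 fell (21.1%, below the share of all genes). Chek1 and Bard1 rose by 1.38 and 1.01. The genes that fell were Mdc1, Trp53bp1, Atm and Atrip, by 0.44, 0.24, 0.23 and 0.23. Of 54 histone cluster genes tested 32 rose and none fell, led by Hist1h1b (1.09), Hist1h2bm (1.08) and Hist2h2bb (0.79). Many histone mRNAs lack the poly(A) tail that this chemistry captures, and near-identical copies can share reads, so their counts are uncertain. Of 12 inhibitors of the cell cycle 8 fell (66.7%), with Foxo1 and Cdkn1b at -0.77 and -0.65. The 2 that rose (16.7%, below the share of all genes) were Cdkn1a by 1.20 ± 0.09 and Cdkn2c by 0.46 ± 0.09. Mki67, a marker of cells in cycle, rose from 61.6 and 83.0 to 128 and 113 CPM.

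Cells were then divided into 13 states by a clustering from which the replication, mitosis, histone and other cycle genes had been left out, and named only where marker genes allowed. The summed level of the 41 genes, given here as a description, was highest in the cycling-like state (4418, 4518, 4231 and 4183 CPM, in the order sgScr 1, sgScr 2, sgArid1a 1, sgArid1a 2). This state raised 10 of 10 cycling markers and 10 of 10 exhaustion markers. Next came the early-activated-like state, led by Ccl1, Xcl1 and Csf2, at 2356, 2629, 3221 and 3146 CPM, in which 7 of 10 cycling markers were raised too. The unnamed cluster 12, at 973, 1747, 3278 and 2706 CPM, had a mean between this state and the next but the widest spread, and its cells were shallow, with a median of 1318 UMIs. The exhausted-like state stood at 1420, 1499, 1703 and 1548 CPM with 0 of 10 cycling markers raised. That count does not show that its cells were out of cycle. Its thinned cells held 0.732, 0.788, 0.875 and 0.791 mitosis UMIs per cell, in the same order of samples. The means over all thinned cells were 0.251 in the naive-like 1 and 9.41 in the cycling-like state. The memory-like and naive-like 1 states, the largest by cells, were at 874, 901, 853 and 930 CPM and at 582, 605, 576 and 601 CPM. Below the exhausted-like state the effector-like, memory-like and innate-like states had means of 1019, 890 and 823 CPM with ranges that overlap from each to the next, and the 3 lowest, naive-like 1, naive-like 7 and heat-shock-high-like (591, 573 and 538 CPM), do not differ beyond their spread.

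**Figure D2:**
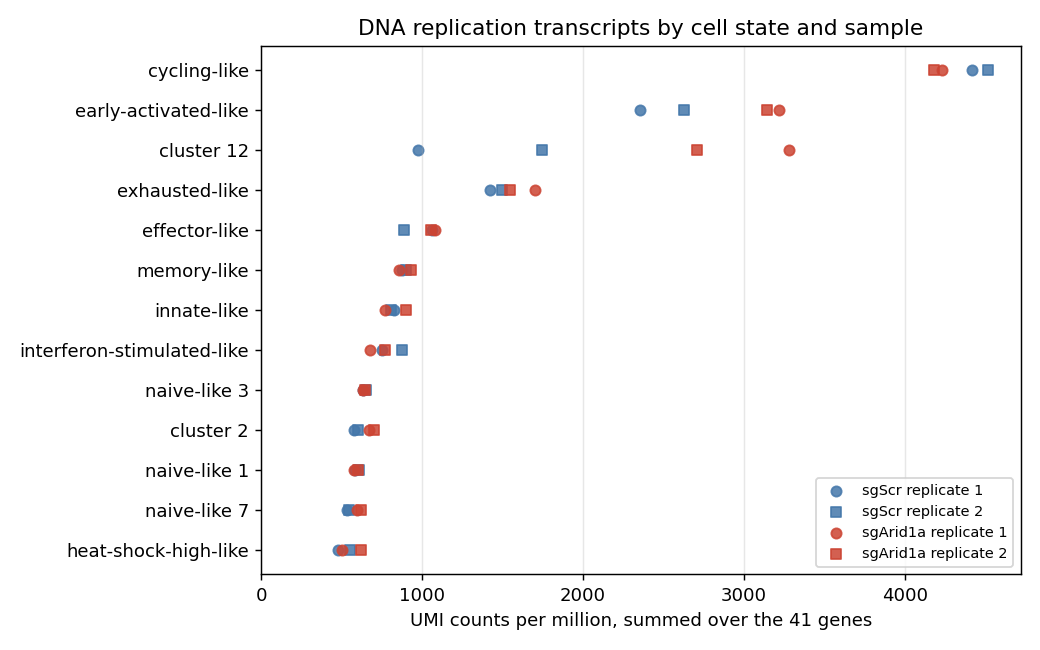
CPM summed over the 41 genes in each cell state, 1 point per sample (blue sgScr, red sgArid1a). The cycling-like points lie between 4183 and 4518 CPM for both groups, while in the early-activated-like state both sgArid1a points (3221 and 3146) lie above both sgScr points (2356 and 2629).

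Cycling-like cells held 22.7% of all UMIs and 52.0% of the UMIs of the replication genes. They were 225 and 204 cells in the sgScr samples and 1066 and 1341 in the sgArid1a samples. Of the 41 genes, 34 had their highest mean in this state. Dtl, Mcm10, Pole and Blm were highest in cluster 12, Ung in the early-activated-like state, and Rpa2 and Cdt1 in the effector-like state. Cluster 12 and the effector-like state held at most 249552 and 345587 UMIs per sample, against 3390539 or more in the cycling-like state. Ranks that rest on these 2 states therefore carry more counting error. The genes differed widely in how far they were limited to cycling-like cells, which can be read as the ratio of a gene's CPM there to its CPM in naive-like 1 cells. Tk1 had a ratio of 349 (204 against 0.584 CPM), Clspn of 113 and Rrm2 of 109. Mcm10 and E2f8 had ratios of 230 and 95.5 on only 2 and 3 UMIs in naive-like 1 cells, whose exact Poisson 95% intervals, for counting error only, carry these ratios from 63.6 to 1897 and from 32.7 to 463. Cdc6 had no UMI there, which with a limit of 3 UMIs over the 4 samples makes it at least 180-fold higher in cycling-like cells. The median ratio was 8.97. At the other end, Pcna was 5.21-fold and Mcm6 4.95-fold higher in cycling-like cells, Slbp 3.10-fold, Mcm4 3.03-fold and Gins4 2.31-fold. For Ung the ratio was 1.44, and for Cdt1 1.15, with 38.0 ± 3.7 CPM in cycling-like and 33.0 ± 6.3 CPM in naive-like 1 cells (SD, n = 4 samples). The difference is within that spread, and the Cdt1 level in exhausted-like cells, 22.9 CPM, was the lowest of all 13 states.

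The change over all T cells was set beside this ratio. The 10 genes with the highest ratios, from 36.7 upwards, had log2 fold changes from 0.84 to 1.36 with a median of 1.20. The 10 with the lowest ratios, up to 4.52, lay between -0.28 and 0.55 with a median of 0.43. The 21 between them ranged from 0.66 to 1.40. Both quantities come from the same cells, so this is a description.

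**Figure D3:**
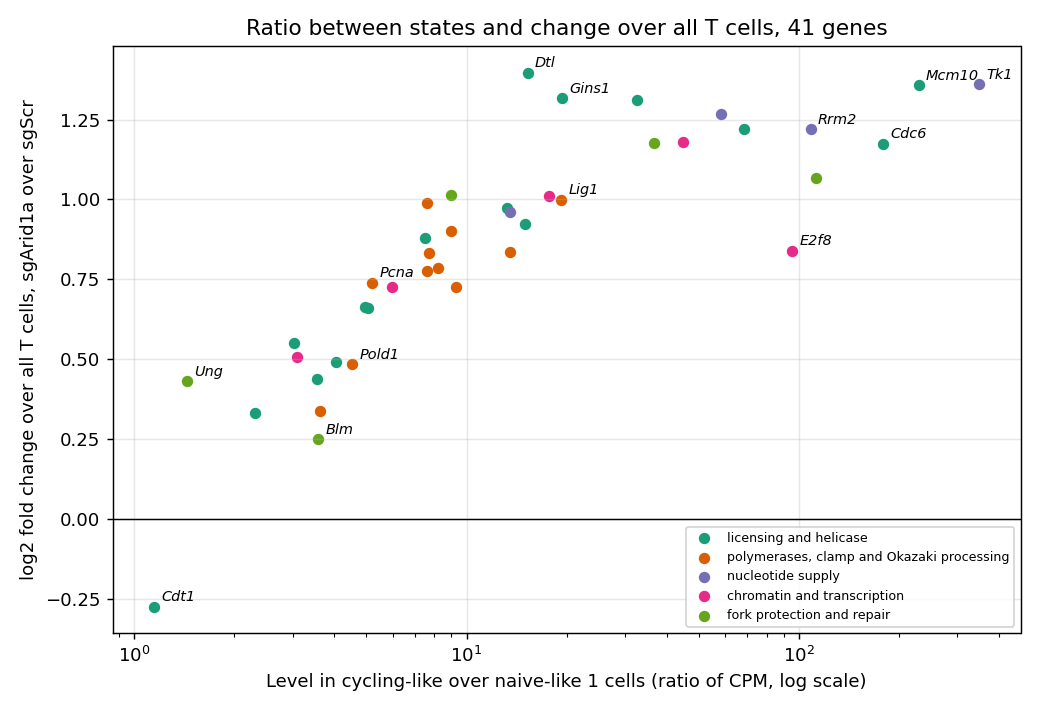
Each point is 1 of the 41 genes, coloured by role: its CPM in cycling-like over naive-like 1 cells (log axis, mean of 4 samples; the value of Cdc6 is a lower bound, and Mcm10 and E2f8 rest on 2 and 3 naive-like UMIs) against its log2 fold change over all T cells, sgArid1a over sgScr. Cdt1 and Ung, nearest a ratio of 1, were at -0.28 and 0.43, and the 10 genes with ratios from 36.7 upwards rose by 0.84 to 1.36.

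Within the cycling-like state the replication genes differed little between the groups. Of 41 genes 1 was called higher and 1 lower, 2.44% each, against 3.47% and 3.22% of all genes tested in this state, so the share is near the background. The median log2 fold change was -0.02. Dtl was at 33.6 and 39.8 CPM in sgScr and 46.7 and 45.8 CPM in sgArid1a cycling-like cells, by 0.41 ± 0.12 (edgeR adjusted p = 0.0276). E2f8 was at 28.6 and 40.1 against 21 CPM in both sgArid1a samples, and fell by 0.63 ± 0.14 (edgeR adjusted p = 0.0015), although it rose over all T cells. Gins1 and Gins2, the next largest, were at 0.27 and 0.23, and Clspn and Blm, the next smallest, at -0.27 and -0.25, and none of these passed. DESeq2 did not call Dtl in this state and gave E2f8 no adjusted p. The Dtl call was also lost without either sgScr sample and without cells with UMIs of several Trbv segments, which were 18.3% of cycling-like cells and include doublets. The E2f8 call was lost without sgScr replicate 2, when it was at -0.40.

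In the early-activated-like state, named from genes induced soon after the antigen receptor is engaged, 17 of 41 replication genes rose (41.5%) and none fell, against 4.63% higher and 2.45% lower of all genes tested there. The median was 0.42, and that of all genes -0.02. Rrm2 was at 79.9 and 99.5 CPM in sgScr and 142 and 144 CPM in sgArid1a cells of this state, by 0.75 ± 0.11 (edgeR adjusted p = 0.0022). Both sgArid1a samples were above both controls. Mcm10 rose by 0.99 ± 0.27, Tipin by 0.65 ± 0.11, Ung by 0.63 ± 0.18 and Tyms by 0.60 ± 0.10. Gins1 was at 0.83 without passing, and the smallest were Cdt1 at -0.39, Blm at 0.08 and Mcm7 at 0.17, none of which passed. The count rested on the controls, which had 175 and 158 cells here: without either sgScr sample no member passed, without multi-Trbv cells, which were 21.3% of this state, 7 did, and with the clustering on all variable genes, which set 963 instead of 1562 cells apart, 1 did. Without multi-Trbv cells 17.1% of the members were called higher, against 3.26% higher and 1.96% lower of all genes. UMIs of the mitosis list moved in the same direction as the members. At 1500 UMIs per cell they were 1.44 and 2.37 per cell in sgScr and 2.94 and 2.61 in sgArid1a. Cells of this state with under 2 mitosis UMIs at full depth numbered 78 and 58 in sgScr and 189 and 226 in sgArid1a. This cut depends on the depth of a cell. Among them 19 members could be tested, of which 4 had an unadjusted p under 0.05, a cut with no like share of all genes given. None of the 19 was called, against 0.971% of all genes called. Their median was 0.35, and with so few control cells the lack of calls says little.

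In the exhausted-like state 5 of 39 members tested rose (12.8%) and none fell, against 4.19% and 3.9% of all genes, with a median of 0.20. Dtl was at 14.0 and 16.5 CPM in sgScr and 27.6 and 20.1 CPM in sgArid1a cells, by 0.65 ± 0.20. Rfc4 rose by 0.60 ± 0.16, Tk1 by 0.52 ± 0.16, Tipin by 0.47 ± 0.12 and Slbp by 0.32 ± 0.10. Exo1 had the largest value, 1.29 ± 0.54, at 1.43 and 1.05 against 3.30 and 2.76 CPM, and did not pass, and Rpa2, Cdc6 and Gins3 were the lowest, at -0.18, -0.11 and -0.05. These calls were not stable: DESeq2, which gave 31 of the 39 an adjusted p, called none, and without sgScr replicate 2 the 1 call was another gene, Gins2. The exhausted-like cells with under 2 mitosis UMIs, also at full depth, numbered 146 and 123 in sgScr and 447 and 361 in sgArid1a. In them 3 of 30 members rose (Mcm3, Mcm5 and Tipin), against 1.84% higher and 1.64% lower of all genes. Their median was 0.51.

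The remaining states gave few calls. Cluster 2, whose top genes include Cd163l1, had 8 of 34 members called higher (23.5%, against 5.2% higher and 2% lower of all genes), at low levels: Uhrf1 was at 2.40 and 3.16 against 7.46 and 7.34 CPM, and Mcm5 at 9.38 and 11.7 against 20.7 and 17.4 CPM. DESeq2 called none, but gave 1 of the 34 an adjusted p, and without sgScr replicate 1 edgeR called none. In innate-like cells, 32 members were tested and 1 was called, Cdt1, at 47.4 and 66.4 against 30.5 CPM in both sgArid1a samples (-0.84 ± 0.20), a call lost without sgScr replicate 2, where 2.07% of all genes were called higher and 0.901% lower. In 7 states no member was called by edgeR or DESeq2, although DESeq2 gave an adjusted p to only 2 of 37 members in memory-like, 2 of 33 in naive-like 1, 0 of 29 in naive-like 3 and 12 of 29 in interferon-stimulated-like cells. In these, 3.67% of all genes were called in memory-like cells (5 members had an unadjusted p under 0.05), 0.976% in naive-like 1 (4), 1.17% in naive-like 3 (3), 0.647% in interferon-stimulated-like (2), 0.107% in naive-like 7 (1), 0.636% in effector-like (0) and 0.025% in cluster 12, where 11 of 15 members had an unadjusted p under 0.05 and the median was 1.38. In cluster 12 leaving out 1 sample gave 2 to 5 calls, all higher. For these calls, and for the counts at an unadjusted p, the like shares of all genes are not given. The shares called at an adjusted p are no background for them. Dtl had the largest value in memory-like (0.76 ± 0.23) and naive-like 1 cells (1.75 ± 0.50) and did not pass in either. It did pass without the filter on low counts in both states, and in memory-like cells also with the replicate block and without sgArid1a replicate 1. The heat-shock-high-like state was not fitted because sgArid1a replicate 1 had 45 cells there.

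**Figure D4:**
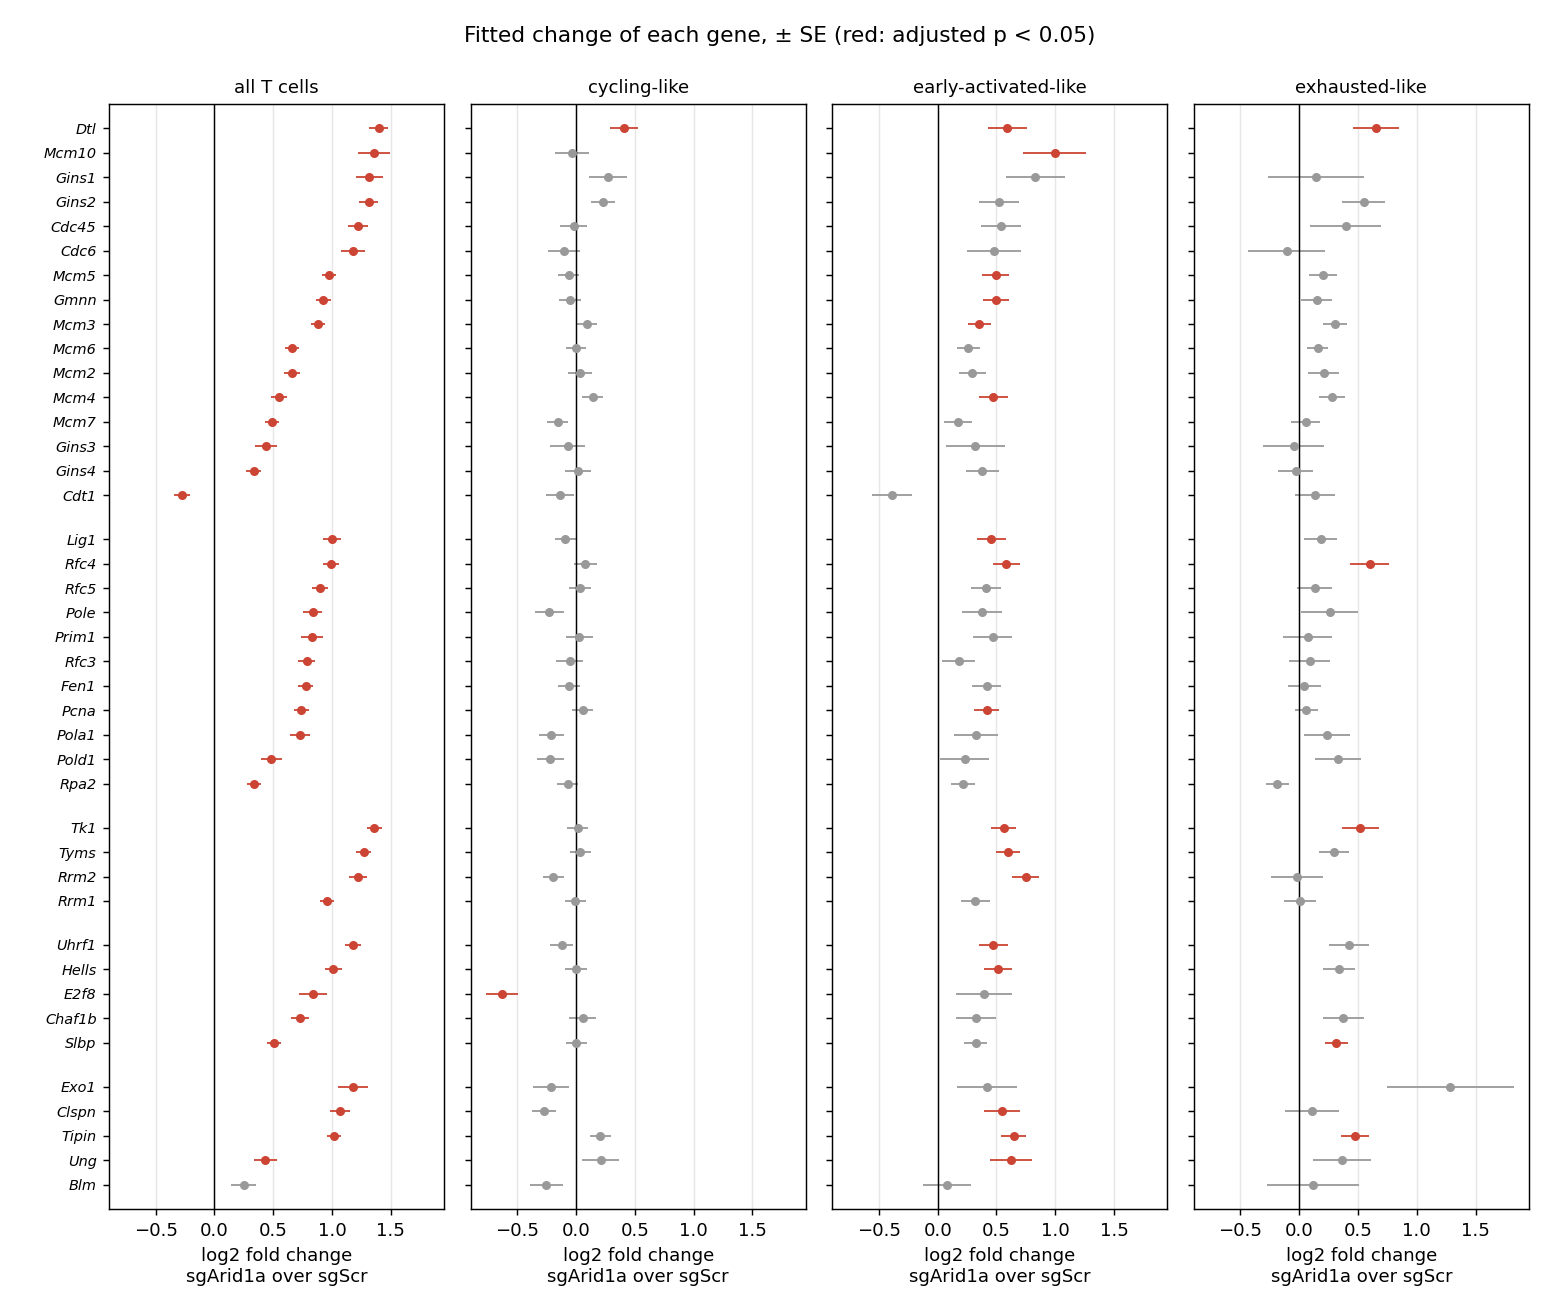
Log2 fold change (± SE, edgeR) of each gene over all T cells and within the cycling-like, early-activated-like and exhausted-like states. Red points passed an adjusted p under 0.05. Over all T cells 40 of 41 points are red, within cycling-like cells 2, within early-activated-like cells 17 and within exhausted-like cells 5.

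Whether the group effect itself differed between states was tested as an interaction with the sample as a block. Between the exhausted-like and the naive-like 1 state, 39 members could be tested and 1 passed: the effect on Mcm3 was larger in exhausted-like cells by 0.57 ± 0.16 on the log2 scale (edgeR adjusted p = 0.0251). Of all genes 0.84% were called larger and 1.88% smaller, so 1 of 39 (2.56%) is near that share, and leaving out any 1 sample removed the call. A second pair, chosen after seeing the data, set the early-activated-like against the cycling-like state. For 16 of 41 members (39.0%) the effect was larger in early-activated-like cells and for none smaller, against 2.79% and 1.62% of all genes. The differences were 1.04 ± 0.27 for Mcm10, 1.02 ± 0.25 for E2f8, 0.94 ± 0.10 for Rrm2 and 0.85 ± 0.13 for Clspn, and 10 to 20 members passed when 1 sample was left out. These values share the mitosis UMIs of the early-activated-like cells given above, whose part in them was not tested.

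At full depth 86.3% of T cells held at least 1 UMI of a replication gene (88.6, 88.3, 78.6 and 90.4% in the 4 samples). Keeping only those cells therefore changed little: 39 of 41 members were higher and Cdt1 lower, where 28% of all genes were called higher and 26.6% lower, with a median of 0.89. The count was the same when each gene was tested in cells chosen by the other 40. Cells with at least 5 replication UMIs were chosen by the summed UMIs of the members themselves, and they differed in depth (medians of 6455, 6197, 7594 and 9779 UMIs) and in their share of T cells (18.7, 19.5, 20.4 and 32%), so their values are a description. In them 33 members were higher and Cdt1 lower, where 16.4% of all genes were called higher and 15.1% lower, and nothing is read from that count. The median was 0.53. The largest were Gins1, Dtl and Gins2 at 0.93, 0.87 and 0.84, and Rpa2, Gins4, Blm, Gins3, Pold1, E2f8 and Pola1 did not pass. Dtl stood there at 21.1 and 23.6 against 42.3 and 36.5 CPM, and Cdt1 at 46.8 and 53.7 against 36.6 and 37.2 CPM. Of these cells 15.2 and 14.5% were cycling-like in sgScr and 47.4 and 32.4% in sgArid1a.

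Shares of cells were compared after each cell had been thinned to 1500 UMIs, which left out 191 and 235 shallower cells in sgScr and 1767 and 331 in sgArid1a. At least 1 replication UMI was then found in 62.8 and 64.6% of sgScr cells and 67.2 and 69.2% of sgArid1a cells. In naive-like 1 cells, which should hold few cells in S phase, the share was 60.1, 58.7, 57.4 and 59.0%, so a single UMI hardly separates cells. Without thinning the shares of 88.6 and 88.3% in sgScr and 78.6 and 90.4% in sgArid1a gave a difference of the opposite sign, the shallow sgArid1a replicate 1 being lowest. At least 2 UMIs were in 29.2 and 30.7% against 37.6 and 38.8% of cells. At least 5 UMIs were in 3.66 and 3.63% of sgScr cells (Wilson 95% intervals 3.25 to 4.11 and 3.22 to 4.10%) and in 12 and 11% of sgArid1a cells (11.3 to 12.6 and 10.4 to 11.5%). Here the groups are far apart, and naive-like 1 cells were at 0.364, 0.132, 0 (0 of 423 cells, interval up to 0.900%) and 0.0997%. Cells with exactly 4 UMIs, just under this cut, were 2.14, 2.23, 3.13 and 3.78%, and those with exactly 5 were 0.887, 0.868, 2.34 and 2.38%. With 2 samples against 2 the exact two-sided permutation test cannot go below p = 0.333, which is its value for each of these 3 thinned shares. Within cycling-like cells at least 5 UMIs were in 59.8, 62.7, 62.7 and 61.4%, so the groups overlap there. Intervals cover counting error only.

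Cells holding both replication and mitosis transcripts were counted next. Of cells with at least 2 replication UMIs, 13.6 and 14.8% in sgScr and 36.2 and 30.8% in sgArid1a also held at least 2 UMIs of the 37 mitosis genes, a difference of 19.3 percentage points (exact two-sided permutation p = 0.333, the smallest possible). Of cells with at least 5 replication UMIs, it was 59.6 and 65.7% against 71.0 and 67.7%, a mean difference of 6.68 percentage points. The intervals were 53.6 to 65.2, 59.7 to 71.3, 68.2 to 73.6 and 65.2 to 70.1%. That of sgScr replicate 2 overlaps both sgArid1a intervals. That of sgScr replicate 1 lies below sgArid1a replicate 1 and barely meets sgArid1a replicate 2. Taken the other way, of cells with at least 2 mitosis UMIs 58.9 and 61.2% in sgScr and 78.3 and 75.8% in sgArid1a held at least 2 replication UMIs. Over all T cells pooled, 12.7% held 2 mitosis UMIs or more. For single genes the shares are given by sample, in the order sgScr 1, sgScr 2, sgArid1a 1, sgArid1a 2, because for most genes they were higher in the sgArid1a samples. Of cells with a UMI of Rrm2, 74.4, 75.8, 81.0 and 81.7% also held at least 2 mitosis UMIs. For Tyms it was 41.1, 46.3, 62.1 and 61.0%. For Pcna it was 16.4, 17.0, 38.8 and 34.1%, and for Ung 4.88, 6.31, 25 and 21.1%. All of these shares were higher in both sgArid1a samples, by fewer percentage points for Rrm2 than for Pcna and Ung. For Cdt1 the shares of 6.68, 8.64, 19.8 and 14.9% lay near those of T cells at large (6.73, 7.42, 17.4 and 15.8%). Cdt1 and Ung were the lowest of the 41 genes in each sample. For E2f8 the share was between 83.3 and 92.3%, but on only 7 to 36 cells a sample.

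**Figure D5:**
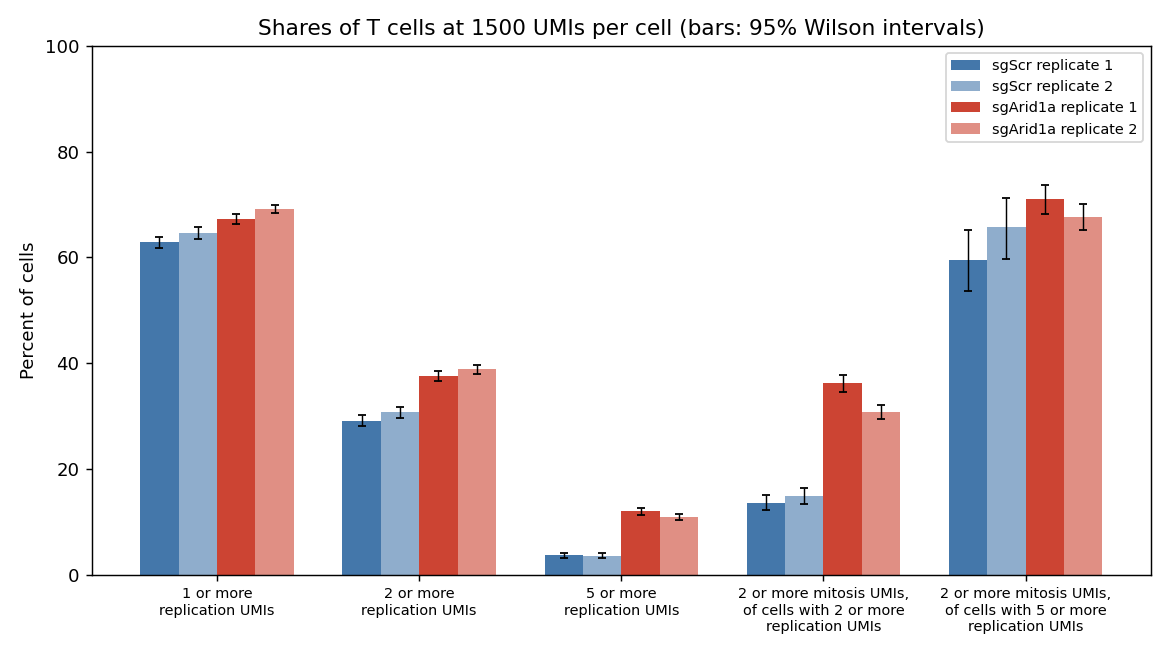
Percent of T cells of each sample at 1500 UMIs per cell (bars, with 95% Wilson intervals; blue sgScr, red sgArid1a) with 1, 2 or 5 replication UMIs or more, and percent of cells with 2 or 5 replication UMIs or more that also held 2 mitosis UMIs or more. The groups differ little at 1 UMI (62.8 and 64.6 against 67.2 and 69.2%). In the last set of bars their means differ by 6.68 percentage points. There the intervals of the replicate 1 samples do not overlap, while those of the replicate 2 samples do. The groups are widest apart in proportion at 5 UMIs (3.66 and 3.63 against 12 and 11%).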

How the data were processed

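RNA of sorted CD8-positive T cells was counted in 4 libraries, 2 per group. The deposited matrices hold UMI counts per gene and called cell, per the file headers, which name Cell Ranger 6.0.1. The builds and tools in the submitters' processing notes are mm10, Seurat and Cell Ranger 3.0.2, so which version made the counts could not be settled. Of 39473 barcodes, the 38316 with 500 genes or more and no more than 10% mitochondrial counts were kept, clustered with scanpy 1.11.5 and leidenalg 0.10.2 (2000 variable genes, 30 components, 15 neighbours, resolution 0.8), and a cluster of 133 cells with B cell and myeloid markers was left out. No doublet caller was run; as an alternative, cells in which 2 or more Trbv segments each had 2 or more UMIs were dropped. T cell barcodes numbered 7148 to 12737 per library, and 32077525 to 80818535 UMIs.

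Counts were summed per sample, and per sample and state with at least 50 cells each, and tested with edgeR 4.0.16 (filterByExpr, TMM, quasi-likelihood F test, Benjamini-Hochberg over all genes tested, R 4.3.3). SEs are the log2 fold change divided by the root of F. DESeq2 1.42.0, other filters, a replicate block and leaving out each sample were alternatives; a DESeq2 adjusted p of NA was kept as NA. On simulated counts for all T cells the edgeR step recovered 78.5% of 200 genes changed 1.5-fold among 12646 genes and 90.5% of those changed 2-fold among 12653. Same-numbered samples did not deviate together (r = -0.0466 over 12783 genes), so the numbers were not taken as pairs. With 2 samples per group this cannot exclude a pairing. Shares were compared at 1500 UMIs per cell.

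The members and lists were chosen with earlier results of these data known. Genes were named by rule: per role the highest level, the largest and the smallest change and any exception, the 3 smallest p per other list, and per state the 3 largest and 3 smallest changes; in states with few or no calls only some of the latter are given, and other members were named after their values were seen. Some genes outside the 41 that the rule would name are not reported here.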

Additional observations from a re-analysis of the deposited data

Results flagged for a closer look

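The group effect, as a log2 difference between sgArid1a and sgScr, was called different between 2 cell states for 17 members. These calls come from 2 separate tests (edgeR interaction with the sample as a block, adjusted over all genes tested). Mcm3 had a larger effect in exhausted-like than in naive-like 1 cells, by 0.57. It was 1 of 39 members tested (2.56%), near the share of all genes, 0.84% larger and 1.88% smaller. The other 16 had a larger effect in early-activated-like than in cycling-like cells, a pair of states chosen after seeing the data. They were 39.0% of the 41 members, against 2.79% larger and 1.62% smaller of all genes.

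Among licensing genes and E2F-linked regulators the differences were 1.04 for Mcm10, 1.02 for E2f8, 0.56 for Gmnn and 0.55 for Mcm5. For E2f8 the cycling-like cells contribute a fall and the early-activated-like cells no call. Among polymerase, clamp and ligase genes they were 0.56 for Lig1, 0.52 for Rfc4, 0.48 for Fen1 and 0.38 for Pcna. The nucleotide genes Rrm2, Tyms and Tk1 stood at 0.94, 0.57 and 0.55. Clspn and Tipin, which act at the fork, stood at 0.85 and 0.45, and the chromatin genes Uhrf1, Hells and Slbp at 0.60, 0.51 and 0.33. The adjusted p of Rrm2 was 5.83e-06 in edgeR, the smallest of the 16.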

How the results depend on the processing

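Over all T cells 39 to 40 members were called higher when 1 sample was left out, and 0 to 1 lower; the same held for lower calls in cells with any replication UMI (0 to 1). DESeq2 called 39 higher, and no filter and the replicate block 40 each. Blm turned to -0.24 with thinned cells. Summed over states, 31 calls were higher; it was 11 with DESeq2, 48 without a filter on low counts, 18 with clustering on all variable genes, 43 with the replicate block, and 7 to 40 on leaving out 1 sample. The 2 lower calls became 0 with DESeq2 and 0 to 3 on leaving out 1 sample. DESeq2's counts are not all lost calls, since it gave many members no adjusted p.

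In cycling-like cells the 1 higher call became 0 with DESeq2, without multi-Trbv cells and with clustering on all variable genes, and 0 to 1 on leaving out 1 sample; the 1 lower call became 0 with DESeq2 and 0 to 2 on leaving out 1 sample. In exhausted-like cells the 5 higher calls became 0 with DESeq2, 8 with the replicate block, 3 without multi-Trbv cells, 3 in cells with under 2 mitosis UMIs, 13 with clustering on all variable genes and 1 to 11 on leaving out 1 sample. In early-activated-like cells the 17 became 11 with DESeq2, 7 without multi-Trbv cells, 0 in cells with under 2 mitosis UMIs, 1 with clustering on all variable genes, 22 with the replicate block and 0 to 19 on leaving out 1 sample. The cause was not tested. Without multi-Trbv cells, 7.69% of 39 members were called higher in exhausted-like cells, against 4.13% higher and 3.78% lower of all genes. In early-activated-like cells it was 17.1% of 41 members, against 3.26% higher and 1.96% lower of all genes. The effect difference between exhausted-like and naive-like 1 cells gave 0 calls on leaving out any 1 sample, and that between early-activated-like and cycling-like cells 10 to 20. The multi-Trbv and mitosis alternatives within states, and the last comparison, were chosen after seeing the data.

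The share of cells with a replication UMI differed by 4.49 percentage points at 1500 UMIs (3.52 to 5.47 on leaving out 1 sample) and by -3.93 without thinning, where depth differs between libraries. The share with mitosis UMIs differed by 19.3 (16.6 to 22.0). At 1000 UMIs per cell it differed by 18.1 and at 2500 by 24.0. At 2500 the sgArid1a samples lay apart, at 48.0 and 32.5%, against 16.4 and 16.2% in sgScr. The share with at least 5 replication UMIs was then 29.3 and 19.5% in sgArid1a, against 7.52 and 8.12% in sgScr. That depth kept only 5079 of the 10667 T cells of sgArid1a replicate 1. Same-numbered samples did not deviate together (r = -0.0466), which with 2 samples per group cannot exclude a pairing.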
